A study of Mus musculus with 6 samples.

Results

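Axon guidance genes encode the secreted and membrane-bound cues that steer growing axons and the receptors that read them. The set described here holds 42 genes of 4 ligand and receptor systems, and its members are all probe sets of the array annotated to exactly 1 of these genes. Of the 42 genes, 41 had such a probe set, with 100 probe sets among the 45037 that were fitted, and Ephb2 was not analysed here. The semaphorin-plexin system gave 16 genes and 42 probe sets, the ephrin-Eph system 14 genes and 36 probe sets, the Slit-Robo system 5 genes and 10 probe sets, and the netrin system 6 genes and 12 probe sets. The samples were 3 brains of Foxf2 mutant embryos and 3 brains of wild-type embryos, all C57/bl6 embryos at E18.5, and each sample's whole-brain RNA was run on 1 Affymetrix array. The gene Foxf2 codes for a forkhead protein that acts in brain pericytes. The labels do not describe the mutant allele or say whether an array held RNA of 1 embryo or of several. Replicates are separate samples by their labels, so the tests rest on the variation among the 6 samples, part of which may be technical.

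Semaphorins bind plexins, and the secreted class mostly does so through neuropilin co-receptors, which usually makes growth cones collapse or turn away. Ephrins are held on the cell surface and signal to Eph receptor tyrosine kinases by contact, which sorts axons into maps and keeps cell populations apart. Slits repel axons that carry Robo receptors, and netrins attract axons through Dcc and repel them through Unc5 receptors. Several of these molecules are also used by blood vessels: ephrin-B2 and EphB4 mark arteries and veins, Sema3e repels vessels through plexin-D1, and Unc5b and Robo proteins act in endothelial cells. In the fetal brain most of the guidance genes are transcribed mainly in neurons and their progenitors.

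No axon guidance gene differed between Foxf2 mutant and wild-type brains past the threshold, a Benjamini-Hochberg adjusted p under 0.05 in limma over all 27022 probe sets that passed a filter on mean intensity. Of the 100 member probe sets, 89 passed the filter and all 41 genes kept at least 1, and 0 of the 89 were called. Over all tested probe sets 0.389% were called, 0.366% higher and 0.0222% lower in the mutant. The smallest adjusted p of a member was 0.111, for Sema6d. With an unadjusted p under 0.05, 7 member probe sets read higher in the mutant and 6 read lower, together 14.6% of the 89, against 13.6% of all tested probe sets (7.78% higher and 5.8% lower). The 3 mutant arrays lay entirely above or below the 3 wild-type arrays in 11 of the 89, or 12.4%, against 20.3% of all tested probe sets (10.9% above and 9.38% below). Counted by probe set, the members' shares thus lay near or under the background. The direction depended on array scaling: with each array centred on its median, 3 members then had an unadjusted p under 0.05 in the higher direction and 8 in the lower one, where the whole table had 1374 and 3114.

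Differences are given as mutant minus wild type on the scale of log2(intensity + 16), which understates the change of dim genes. The 89 probe sets had a median difference of -0.03, with quartiles of -0.12 and 0.09, and all tested probe sets had a median of -0.0064, with quartiles of -0.11 and 0.11. With 1 probe set per gene, the brightest, the 41 genes split into 21 that read higher and 20 that read lower, where 48.3% of all 12577 genes read higher and 51.7% lower. With an unadjusted p under 0.05, 4 genes read higher and 4 lower, together 19.5% of the 41. Of all genes 13.6% did, 7.59% higher and 6.01% lower. By gene the members' share was thus above the background, but it rests on 8 genes and the excess was not tested. The groups did not overlap in 19.5% of the 41 genes, against 21% of all genes. None passed the threshold, against 0.215% higher and 0.00795% lower. Of these 41 genes, 33 had a 95% confidence interval that spanned 0, 4 had one above 0 and 4 one below 0. Over the 41 genes the intervals, taken as folds on this scale, reached from 0.633, for Ephb3, to 1.54, for Robo1. Changes beyond those folds on this scale lay outside the intervals of the brightest probe sets. These intervals hold for single genes and are not adjusted for their number. Other probe sets of the same genes left larger changes open. Over all 89 tested member probe sets the intervals reached from 0.54, for Slit1 1425277_at, to 1.83, for Sema3e 1419717_at. For dim genes the same fold on this scale is a larger change of intensity. Within those folds, 3 arrays per group left the direction of most genes unresolved.

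**Figure D1:**
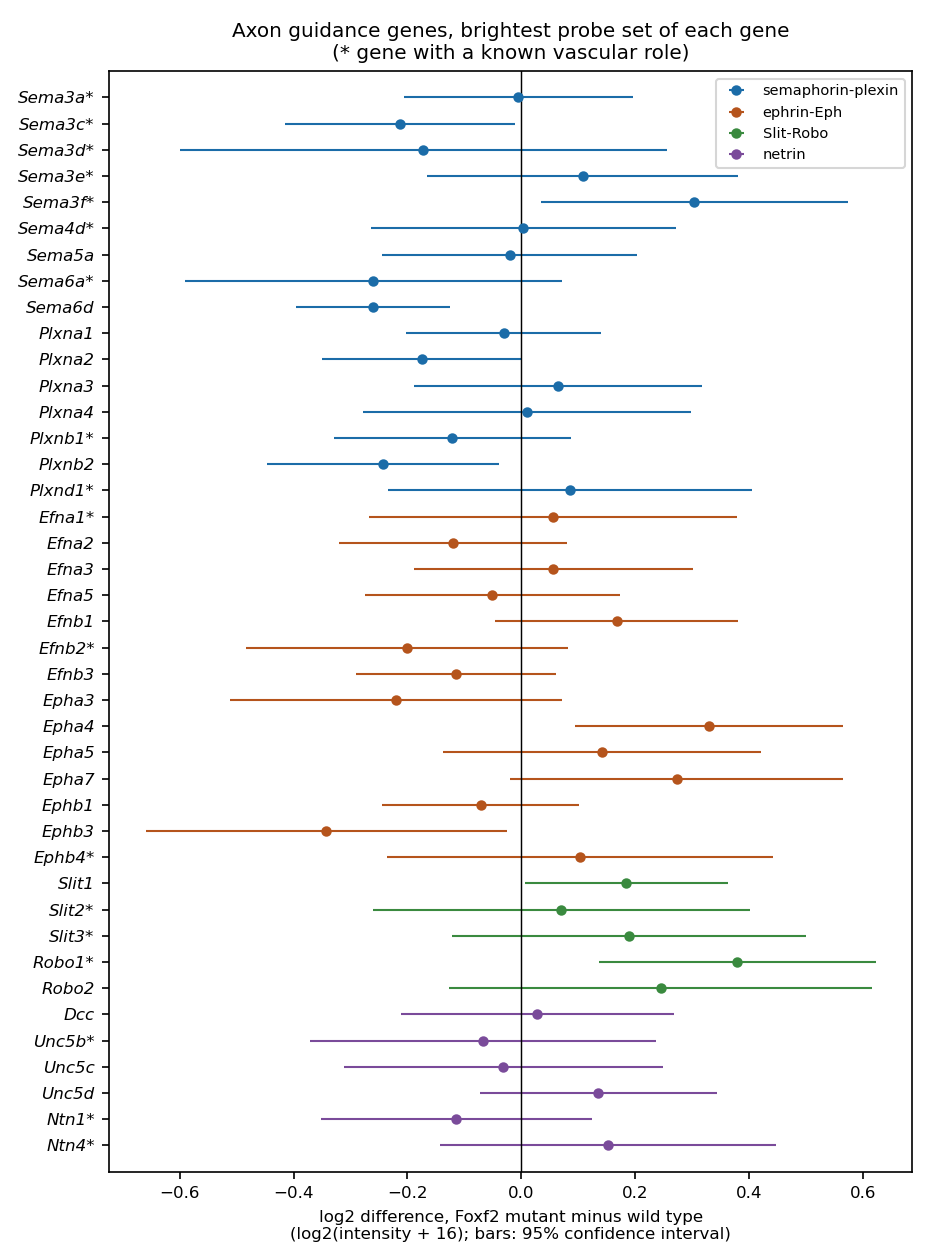
Difference between Foxf2 mutant and wild-type brains for the brightest probe set of each of 41 axon guidance genes. Points are log2 differences (log2(intensity + 16), mutant minus wild type), bars are 95% confidence intervals from limma, colours mark the 4 systems and stars mark genes with a known vascular role. Points lie on both sides of 0, between -0.34 for Ephb3 and 0.38 for Robo1.

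The arrays differed in ways that touch these values. Foxf2 itself gave 8.06, 3.31 and 7.57 on the mutant arrays and 18.6, 24.4 and 13.8 on the wild-type arrays. The groups did not overlap, but with 3 arrays a side the exact permutation p (two-sided) cannot go below the 0.1 seen here, and the mean over the 6 arrays lay under the filter. The median intensity was 24.3 to 25.5 on mutant arrays and 23.1 to 23.6 on wild-type arrays, and the Gapdh 3′ to 5′ ratio, a sign of RNA quality, was 0.682 to 0.689 and 0.702 to 0.741. Skeletal muscle transcripts stood out in mutant array 3, where Acta1 read 741 against 71.8 to 75.5 on the other mutant arrays, and pituitary transcripts in wild-type array 3, where Gh read 1592, against 7.47 and 23.8 on the other wild-type arrays and 203 on mutant array 3. With both of these arrays left out, 0 member probe sets passed the threshold (limma, smallest adjusted p = 0.253), while 6 had an unadjusted p under 0.05 in the higher and 5 in the lower direction. Of all 27022 tested probe sets 1651 and 1097 then did. Summed over the brightest probe sets, 11 radial glia and astrocyte markers gave 8589 to 8896 on mutant arrays and 7470 to 8234 on wild-type arrays, and 12 endothelial markers gave 1801 to 1856 and 2050 to 2114. Neither sum overlapped between groups, and 1 of 22 radial glia and astrocyte probe sets passed the threshold (Vim, higher) and 0 of 18 endothelial ones. Such sums weigh bright genes most, and the markers did not all move together. By the brightest probe set, 6 of the 11 radial glia and astrocyte genes read higher and 5 lower. Of the 12 endothelial genes, 5 read higher and 7 lower. In 5 of the 12 the mutant arrays lay entirely below and in 0 entirely above, or 41.7% against 21% of all genes. In limma 3 of the 12 had an unadjusted p under 0.05, all lower, or 25% against 13.6% of all genes. The largest differences were those of Slco1c1 (-0.75, limma adjusted p = 0.0652) and Cldn5 (-0.43, limma adjusted p = 0.0622). The sums of 14 neuronal markers (18530 to 18830 on mutant and 18090 to 18570 on wild-type arrays) and of 11 pericyte markers (3101 to 3221 and 2943 to 3308) overlapped. Single markers differed more: 6 of the 14 neuronal genes did not overlap, 4 above and 2 below, or 42.9% against 21% of all genes. Of 10 tested pericyte genes, 3 read higher and 7 lower. In limma 28.6% of 21 pericyte probe sets had an unadjusted p under 0.05, 2 higher and 4 lower, against 13.6% of all tested probe sets. Choroid plexus markers summed to 6811 to 7129 and 6011 to 6716, without overlap, while microglial (559.8 to 606.6 and 537.9 to 604.5), oligodendrocyte (1161 to 1511 and 1064 to 1454) and erythroid sums (80.96 to 324.9 and 149 to 247.2) overlapped. The part of these array and marker differences in the values below was not tested. In whole-brain RNA, fewer cells of a type and less RNA per cell cannot be told apart.

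Promoter sequences were taken from RefSeq (GRCm38.p6), which held 42 promoters for 33 of the 42 genes. The 250 bases before the start of the gene had a median GC content of 64.8% and a median of 16 CpG dinucleotides among the members, against 52.4% and 6 among all 32851 promoters. The forkhead motif GTAAACA (or TGTTTAC on the other strand) was found in 0 of the 42 member windows and in 3.17% of all promoter windows, and the related ATAAACA (or TGTTTAT) in 1 of 42 and in 4.16%. These are matches of letters only. The windows of the 3 genes whose probe sets had the smallest unadjusted p are shown first, with CpG dinucleotides in capitals, because the brightest Sema6d probe set and the dimmer Plxna3 probe set read lower and the brightest Robo1 probe set higher in the mutant. Sema6d had a second annotated start, and the first is shown. The only member window with a match follows, with the motif in capitals. It belongs to 1 of several annotated Sema4d starts, and the windows of the others held no match.
Sema6d, chr2:124089719-124089968, plus strand: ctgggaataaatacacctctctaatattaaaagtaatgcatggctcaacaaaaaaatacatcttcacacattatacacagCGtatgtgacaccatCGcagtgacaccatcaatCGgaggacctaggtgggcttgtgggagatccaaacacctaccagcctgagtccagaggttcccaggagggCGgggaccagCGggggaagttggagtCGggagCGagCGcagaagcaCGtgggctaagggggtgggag
Plxna3, chrX:74328816-74329065, plus strand: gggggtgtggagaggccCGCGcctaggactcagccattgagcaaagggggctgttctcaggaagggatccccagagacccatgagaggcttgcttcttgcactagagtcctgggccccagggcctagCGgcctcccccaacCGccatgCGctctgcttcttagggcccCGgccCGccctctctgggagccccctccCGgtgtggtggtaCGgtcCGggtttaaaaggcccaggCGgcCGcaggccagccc
Robo1, chr16:72662899-72663148, plus strand: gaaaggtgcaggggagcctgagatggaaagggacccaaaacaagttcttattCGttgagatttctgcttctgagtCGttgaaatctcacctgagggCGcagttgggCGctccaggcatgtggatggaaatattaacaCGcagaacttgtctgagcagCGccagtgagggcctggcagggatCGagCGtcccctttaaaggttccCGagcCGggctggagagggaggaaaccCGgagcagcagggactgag
Sema4d, chr13:51756684-51756933, minus strand: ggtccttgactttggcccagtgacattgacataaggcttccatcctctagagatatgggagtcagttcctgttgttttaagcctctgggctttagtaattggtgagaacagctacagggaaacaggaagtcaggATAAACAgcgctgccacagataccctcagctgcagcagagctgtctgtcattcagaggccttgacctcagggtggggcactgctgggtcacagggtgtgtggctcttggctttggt
The first 3 windows hold 9, 12 and 11 CpG dinucleotides. The Sema4d match starts 116 bases before the annotated start used for this window, and the Sema4d window shown holds 1 CpG.

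Among the semaphorin ligands, Sema6d read lower in all 3 mutant brains. Sema6d is a transmembrane semaphorin that signals through plexin-A1. Its brightest probe set gave 626, 637 and 605 on the mutant arrays and 780, 740 and 728 on the wild-type arrays. The highest mutant array lay below the lowest wild-type array. The means were 623 ± 16.04 and 750 ± 27.1 (SD, n = 3 each), a log2 difference of -0.26 with a 95% confidence interval of -0.40 to -0.13, and limma gave an unadjusted p of 0.00182 and an adjusted p of 0.111. Its only other probe set above the filter read -0.09.

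Sema3c, a secreted semaphorin needed for outflow tract and callosal development, also read lower without overlap. Its brightest probe set gave 344, 296 and 344 on the mutant arrays and 416, 385 and 349 on the wild-type arrays. The lowest wild-type array lay only just above the highest mutant arrays. The log2 difference was -0.21 (limma, unadjusted p = 0.0411, adjusted p = 0.343), and the other Sema3c probe set read -0.18. Sema3a, the classical collapsing factor, gave 194, 210 and 204 on the mutant arrays and 221, 210 and 181 on the wild-type arrays, so the groups overlapped and the difference was -0.0048.

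For Sema3f and Sema3e, probe sets of the same gene disagreed. Sema3f repels axons and vessels through neuropilin-2. Its _x_at probe set, a kind whose probes can match other transcripts, gave 92.2, 116 and 96.5 on the mutant arrays and 84.6, 68.0 and 85.3 on the wild-type arrays, higher in all 3 mutants (0.30, limma adjusted p = 0.312). Its 2 other probe sets read -0.19 and -0.28. Of 4 Sema3e probe sets, 1419717_at gave 50.4, 76.4 and 76.9 on the mutant arrays and 31.9, 55.8 and 49.0 on the wild-type arrays, with a difference of 0.45 (adjusted p = 0.338), the largest among members. Mutant array 1 fell within the wild-type range. The other 3 read 0.11, 0.10 and -0.09.

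The remaining ligands overlapped between groups on every probe set above the filter. The brightest probe set read -0.26 for Sema6a, a transmembrane ligand of A-type plexins with an interval of -0.59 to 0.07, and -0.17 for Sema3d, a secreted semaphorin. Sema4d, which acts on plexin-B1 and is known from immune cells and oligodendrocytes, read 0.0033, and Sema5a, a transmembrane semaphorin with thrombospondin repeats, -0.02. Of the 21 ligand probe sets, 4, or 19%, had an unadjusted p under 0.05, 2 in each direction. Of all tested probe sets 13.6% did, 7.78% higher and 5.8% lower.

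Among the plexin receptors 0 of 14 probe sets passed the threshold. In 4 of the 14 the mutant arrays lay entirely below the wild-type arrays and in 0 entirely above, where 9.38% and 10.9% of all tested probe sets did. Plexin-A3, with plexin-A4, transmits signals of secreted semaphorins bound to neuropilins. The Plxna3 probe set 1420995_at gave 230, 201 and 190 on the mutant arrays and 269, 255 and 261 on the wild-type arrays. The wild-type arrays lay close together and above every mutant array. The log2 difference was -0.32 with an interval of -0.51 to -0.13 (limma, unadjusted p = 0.00402, adjusted p = 0.154). The brighter Plxna3 probe set gave 311, 347 and 249 on the mutant arrays and 274, 298 and 285 on the wild-type arrays, with a difference of 0.06, so the 2 probe sets did not read alike.

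Plexin-B2 is a receptor for class 4 semaphorins in neural progenitors. Plxnb2 gave 292, 302 and 247 on the mutant arrays and 357, 317 and 328 on the wild-type arrays, with no overlap. Its difference was -0.24 (limma, unadjusted p = 0.0247, adjusted p = 0.289), and it had no other probe set. Plxna2, a receptor for Sema6a, gave 540, 483 and 588 on the mutant arrays and 601, 611 and 605 on the wild-type arrays, and its 4 probe sets read -0.03, -0.22, -0.17 and -0.10. All 4 were thus below 0, and on 3 of them the groups overlapped. The dimmer Plxna1 probe set gave 35.1, 31.1 and 32.0 on the mutant arrays and 43.3, 45.6 and 40.2 on the wild-type arrays (-0.28, adjusted p = 0.345), while the brighter one, at 246 in the mutant and 251 in the wild type, read -0.03.

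Plxna4 read 0.01 and 0.04, and Plxnb1, the receptor for Sema4d, -0.12 and 0.06, with overlapping groups. Over the semaphorin-plexin system, 12 of 35 tested probe sets read higher and 23 lower, with a median of -0.09, beside 48.6% higher and 51.4% lower and a median of -0.0064 over all tested probe sets. The median lay between -0.11 and -0.04 when single arrays were left out, was -0.05 with both muscle and pituitary arrays left out, and was -0.15 after median centring, which moved all tested probe sets to -0.06. With 1 probe set per gene, 6 genes read higher and 10 lower, with a median of -0.03.

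**Figure D2:**
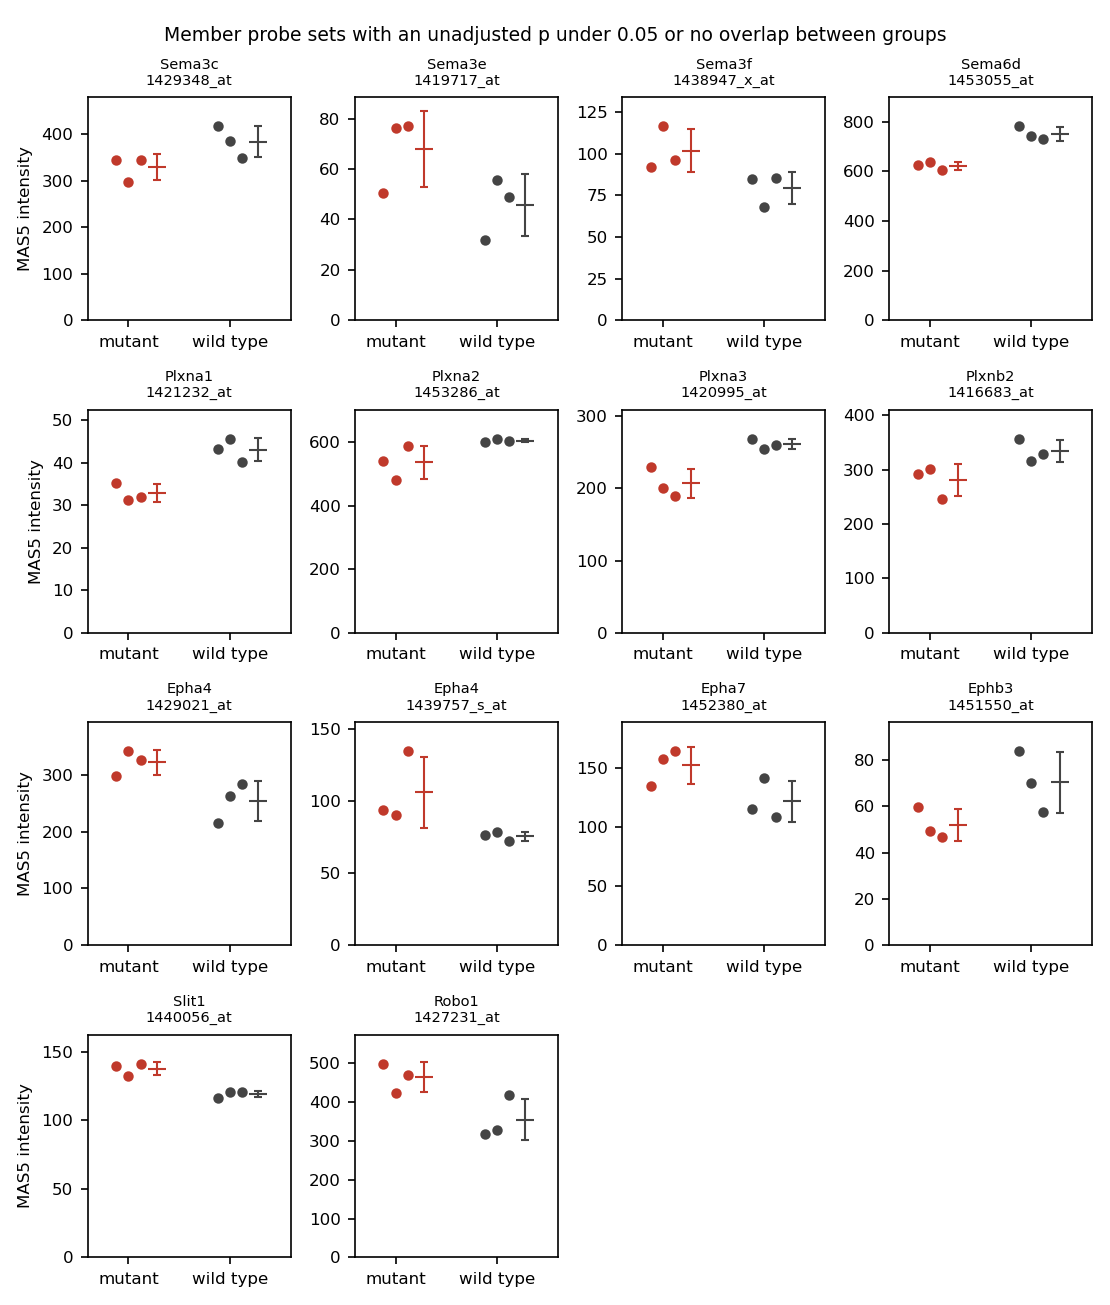
MAS5 intensity on each array for the 14 member probe sets above the filter with an unadjusted p under 0.05 or with no overlap between groups. Points are arrays, mutant at left and wild type at right, and the bar beside them is the mean with its SD (n = 3). The Sema6d, Plxna3 (1420995_at), Plxnb2, Plxna1, Plxna2 and Sema3c probe sets lie lower in all 3 mutant arrays, and the Robo1, Slit1, Sema3f and both Epha4 probe sets lie higher.

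No ephrin or Eph probe set passed the threshold. EphA4 is a receptor for both ephrin classes that guides corticospinal and motor axons. Its brightest probe set, 1429021_at, gave 299, 341 and 325 on the mutant arrays and 215, 262 and 285 on the wild-type arrays, all 3 mutants above. The difference was 0.33 with an interval of 0.09 to 0.57 (limma, unadjusted p = 0.0114, adjusted p = 0.224). A second Epha4 probe set, 1439757_s_at, gave 93.7, 90.1 and 134 on the mutant arrays and 76.2, 78.3 and 72.2 on the wild-type arrays (0.40, adjusted p = 0.262), again without overlap and with mutant array 3 well above the others. The other 3 Epha4 probe sets read 0.08, 0.05 and -0.0097 and overlapped.

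EphA7 is a receptor with short forms that take part in cortical progenitor survival and map formation. Epha7 1452380_at gave 135, 158 and 164 on the mutant arrays and 116, 142 and 108 on the wild-type arrays, with 1 wild-type array within the mutant range (0.29, limma adjusted p = 0.313). The brightest Epha7 probe set read 0.27 and the other 2 read -0.08 and -0.04. EphB3, a receptor for B-type ephrins with a part in the corpus callosum, read lower. Ephb3 gave 59.5, 49.1 and 46.7 on the mutant arrays and 83.8, 69.9 and 57.4 on the wild-type arrays. The groups overlapped by 1 array, the difference was -0.34 with an interval of -0.66 to -0.03 (limma, unadjusted p = 0.0373, adjusted p = 0.331), and there was no other probe set.

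Epha3, a receptor for A-type ephrins, had 4 probe sets from -0.22 to 0.31, and Epha5, which reads ephrin-A gradients, 4 from -0.09 to 0.14, all with overlapping groups. Ephb1, a receptor that turns retinal axons at the chiasm, gave 436, 387 and 401 on the mutant arrays and 433, 398 and 456 on the wild-type arrays, a difference of -0.07. Of the 20 Eph receptor probe sets, 4 had an unadjusted p under 0.05, 3 of them higher and 1 lower in the mutant, where 7.78% and 5.8% of all tested probe sets did. The groups did not overlap in 2 of the 20, or 10%, against 20.3% of all.

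None of the 14 ephrin probe sets above the filter separated the groups, and 0 had an unadjusted p under 0.05 in limma. Their differences ran from -0.20 to 0.17, with a median of -0.07. The brightest probe set read 0.06 for Efna1, a TNF-inducible ephrin, -0.12 for Efna2 and -0.05 for Efna5, which form gradients in visual maps, and 0.06 for Efna3. It read 0.17 for Efnb1, an X-linked ephrin of craniofacial development, and -0.11 for Efnb3, a midline barrier to corticospinal axons. A dim second Efna5 probe set, 1421796_a_at, gave 4.503, 4.02 and 8.19 on the mutant arrays and 1.13, 1.82 and 2.25 on the wild-type arrays. All 6 values lay below the filter of 13.5, so it was not among the 27022 probe sets. Without the filter limma gave it an adjusted p of 0.355, and the bright Efna5 probe set overlapped. Over the whole ephrin-Eph system the median of 34 probe sets was -0.04. It lay between -0.07 (mutant array 1 out) and 0.00068 (mutant array 3 out) with single arrays left out, and was 0.02 without the muscle and pituitary arrays and -0.09 after median centring.

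In the Slit-Robo system, Robo1 read higher in all 3 mutant brains. Robo1 is the receptor that keeps commissural and thalamocortical axons away from Slit. Its brightest probe set gave 499, 424 and 471 on the mutant arrays and 319, 329 and 417 on the wild-type arrays. The lowest mutant array lay just above the highest wild-type array. The means were 465 ± 37.8 and 355 ± 54.0 (SD, n = 3 each), a log2 difference of 0.38 with an interval of 0.14 to 0.62, and limma gave an unadjusted p of 0.00638 and an adjusted p of 0.182. A second tested Robo1 probe set, 1445549_at, gave 235, 186 and 178 on the mutant arrays and 183, 204 and 187 on the wild-type arrays, with a difference of 0.05.

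Robo2, a close relative of Robo1 in axon repulsion, gave 53.5, 50.4 and 32.3 on the mutant arrays and 38.4, 30.0 and 37.6 on the wild-type arrays (0.24), so mutant array 3 fell within the wild-type range. Slit1, the Slit most confined to the nervous system, gave 139, 132 and 141 on its brighter probe set on the mutant arrays and 116, 121 and 120 on the wild-type arrays. The groups did not overlap and the difference was 0.18 (limma, unadjusted p = 0.0435, adjusted p = 0.349). The dimmer Slit1 probe set gave 25.1, 9.41 and 33.5 on the mutant arrays and 28.1, 32.8 and 35.9 on the wild-type arrays, a difference of -0.37, with mutant array 2 far below the other 5 arrays.

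Slit2, the main midline repellent, read 0.07, -0.12 and 0.03 on its 3 probe sets, and Slit3, a Slit with vascular and diaphragm roles, 0.19. Of 9 Slit and Robo probe sets, 7 read higher and 2 lower, with a median of 0.07, or 0.02 after median centring. The median lay between 0.02 (wild-type array 1 out) and 0.13 (mutant array 2 out) with single arrays left out, and was 0.17 without the muscle and pituitary arrays. With 1 probe set per gene all 5 genes read higher, from 0.07 to 0.38, where 48.3% of all genes did, but Slit2 read -0.049 without wild-type array 2.

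The netrin system held no probe set that separated the groups, and 0 of 11 had an unadjusted p under 0.05 in limma. Dcc, the attractive netrin receptor, gave 553, 487 and 505 on the mutant arrays and 544, 422 and 556 on the wild-type arrays, with a difference of 0.03 and an interval of -0.21 to 0.27. Its other probe sets read 0.02 and -0.13. The repulsive netrin receptors read -0.03 on the brightest probe set for Unc5c and 0.14 for Unc5d, which is also a marker of migrating upper-layer neurons. The 11 probe sets had a median of 0.03, which was -0.03 after median centring. It lay between -0.07 (wild-type array 2 out) and 0.08 (wild-type array 3 out) with single arrays left out, and was 0.11 without the muscle and pituitary arrays, so its sign was not settled.

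Members with a known role in vessels were also looked at together, since Foxf2 is a gene of vessel-associated cells. The 37 tested probe sets of these 18 genes had a median difference of 0.0033 and 0 past the threshold, and 3 had an unadjusted p under 0.05 in the higher and 1 in the lower direction, together 10.8% against 13.6% of all tested probe sets. By the brightest probe set, 3 of the 18 genes did not overlap between groups, Robo1 and Sema3f higher and Sema3c lower in the mutant, or 16.7% against 21% of all genes. Efnb2, the arterial ephrin, gave 490, 406 and 429 on the mutant arrays and 418, 525 and 599 on the wild-type arrays, and 3 of its 4 probe sets read below 0. Its venous receptor Ephb4 gave 21.8, 13.2 and 16.6 on the mutant arrays and 13.1, 12.5 and 19.0 on the wild-type arrays, close to the filter. The groups overlapped in both, with differences of -0.20 and 0.10.

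The Sema3e receptor Plxnd1 gave 110, 118 and 76.6 on the mutant arrays and 95.4, 98.6 and 85.8 on the wild-type arrays (0.09). The brightest Sema3e probe set gave 84.9, 105 and 83.7 on the mutant arrays and 74.3, 95.5 and 80.7 on the wild-type arrays (0.11). In both genes the groups overlapped. Slit2, a ligand of Robo1, gave 266, 224 and 279 on the mutant arrays and 225, 202 and 310 on the wild-type arrays.

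Unc5b, a netrin receptor of tip cells and arteries, gave 38.5, 40.4 and 40.4 on the mutant arrays and 52.5, 36.2 and 39.8 on the wild-type arrays (-0.07). Ntn1, a diffusible guidance cue, gave 193, 176 and 151 on the mutant arrays and 209, 176 and 181 on the wild-type arrays (-0.11). Ntn4, a netrin of basement membranes, gave 53.4, 53.9 and 43.6 on the mutant arrays and 36.8, 48.2 and 46.2 on the wild-type arrays (0.15). All 3 overlapped between groups, and intervals reached from -0.37 to 0.24 for Unc5b, -0.35 to 0.12 for Ntn1 and -0.14 to 0.45 for Ntn4.

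**Figure D3:**
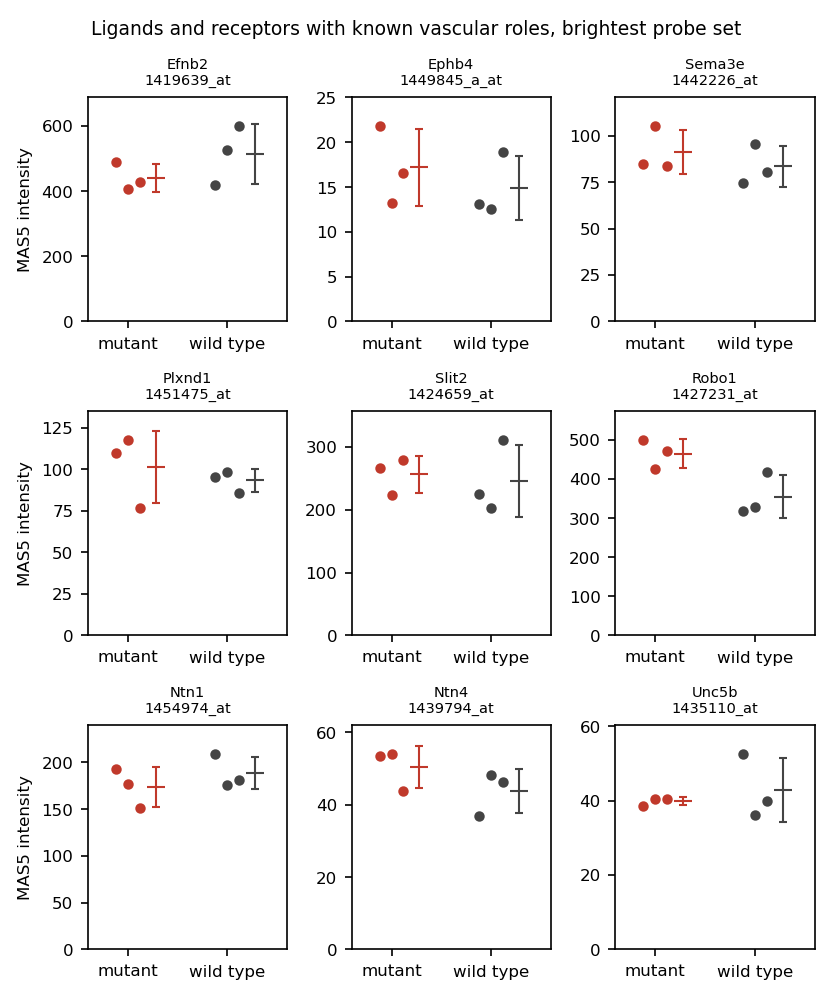
MAS5 intensity on each array for 9 of the 18 guidance genes with known vascular roles, those of the ligand and receptor pairs, brightest probe set of each gene, mutant at left and wild type at right. Points are arrays and the bar is the mean with its SD (n = 3). Of these 9 genes the groups do not overlap in Robo1 alone, and Sema3f and Sema3c, which also do not overlap, are not among the 9.

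Probe sets of the same gene often disagreed in direction. Of the 41 genes, 28 had several probe sets above the filter, and in 7 of these, or 25%, all read the same way: 2 all higher (Plxna4 and Robo1) and 5 all lower (Sema3a, Sema3c, Sema6d, Plxna1 and Plxna2). Over all singly named genes with several tested probe sets, 41.2% read the same way. The median distance between the lowest and highest probe set of a gene was 0.24 among the members and 0.21 among all such genes.

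**Figure D4:**
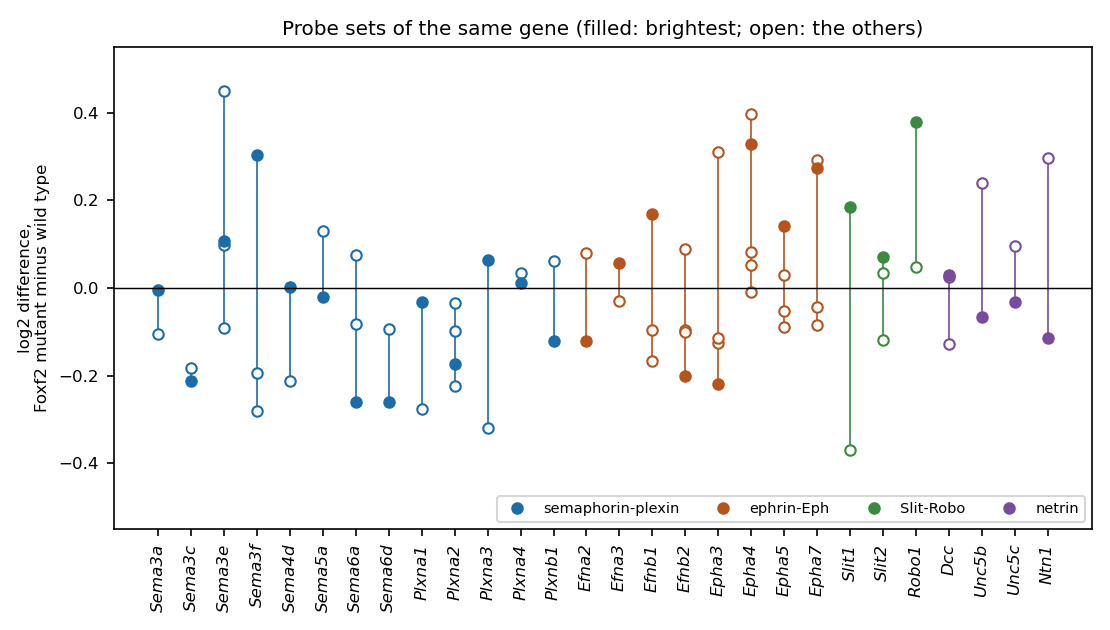
Log2 difference, mutant minus wild type, of each tested probe set for the 28 member genes with several. Filled points are the brightest probe set and open points the others, joined by a line per gene and coloured by system. In 21 of the 28 genes the points lie on both sides of 0.

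Other genes of these pathways gave no call either. Among 15 further semaphorins, plexins and neuropilins, 0 of 28 tested probe sets passed and 4, or 14.3%, had an unadjusted p under 0.05, against 13.6% of all tested probe sets. All 4 were lower in the mutant, where 5.8% of all tested probe sets were. Nrp2, the co-receptor of Sema3f, averaged 381 in the mutant and 488 in the wild type (-0.34, limma adjusted p = 0.238), and Sema6c averaged 49.9 and 71.4 (-0.40, adjusted p = 0.251), both without overlap. Of 6 probe sets of further ephrins and Eph receptors 0 passed, with Ephb6, a receptor without kinase activity, at -0.19 and Epha2 at 0.16. Robo4, an endothelial Robo, averaged 33.9 in the mutant and 26.8 in the wild type (0.22). Of 23 probe sets of further netrin and repulsive guidance genes 0 passed, with the membrane-bound netrin gene Ntng2 at 0.30 and the Dcc antagonist Draxin at -0.24.

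Of 34 probe sets of 12 guidance adhesion molecules 0 passed, and 4, or 11.8%, had an unadjusted p under 0.05, 2 in each direction, against 13.6% of all tested probe sets. The contactin gene Cntn1 averaged 1909 in the mutant and 1513 in the wild type (0.32), and the neurofascin gene Nfasc 173 and 203 (-0.21). Of 89 probe sets of genes that act downstream of guidance receptors in the growth cone 0 passed, and 13, or 14.6%, had an unadjusted p under 0.05, 6 of them higher. Dpysl2, which carries semaphorin signals to microtubules, averaged 1739 and 1300 (0.42, limma adjusted p = 0.222), and Mical1, an actin-oxidising enzyme downstream of plexins, 46.7 and 61.0 (-0.31).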

How the data were processed

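Whole-brain RNA of 6 samples was measured on Affymetrix arrays, 3 from Foxf2 mutant and 3 from wild-type embryos. Extraction used a Sigma total RNA kit and the label was biotin, per the labels. The authors deposited intensity values on a linear scale, made with MAS5 per the submitters' processing notes, whose version is not given in the sources used here. Each deposited array had a trimmed mean of 100 once 2% of probe sets at either end were dropped. The arrays thus came scaled, were not scaled again, and cannot show a change in the amount of RNA per brain.

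Of 45101 probe sets, 64 controls were left out. Genes were named from the platform annotation: 34945 probe sets had 1 gene, 932 several and 9160 none listed, and only the first were named. After an offset of 16 and log2, limma 3.58.1 under R 4.3.3 compared mutant with wild type (lmFit and eBayes, trend = TRUE), two-sided, with Benjamini-Hochberg adjustment over the 27022 probe sets whose mean reached the 40th percentile, an intensity of 13.5. The threshold was an adjusted p of 0.05. The code was tested on simulated data. Depth does not apply to arrays, and their number limits the precision.

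The members, their grouping and all lists were chosen with earlier results of these data known. Every member could be named. Values on every array are given for members with an unadjusted p under 0.05, without overlap, or in a vascular ligand and receptor pair, and for Sema3a, Ephb1, Robo2, Dcc, the second probe sets of Plxna3, Robo1 and Slit1, chosen after their values were seen. The rule for other lists was to name genes past the threshold or otherwise the 2 with the largest absolute difference. It was followed for the other guidance lists and, among marker lists, for the endothelial one (Slco1c1 and Cldn5). Most genes it picks from the remaining marker lists are not named here. Acta1, Gh and Vim were named for the arrays or list they mark. Alternatives covered offset, filter, scaling, variance trend, weights per array, a replicate block, 1 probe set per gene and each array left out.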

Additional observations from a re-analysis of the deposited data

Results flagged for a closer look

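The dim Efna5 probe set 1421796_a_at stood apart in data below the filter, outside the main comparison. It averaged 5.57 on the mutant arrays and 1.73 on the wild-type arrays, with all 3 mutant arrays above, and had an adjusted p of 0.355 in limma without the filter. The bright Efna5 probe set averaged 151 and 157.

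Of the array's control probe sets, not part of any comparison, signals were higher on all 3 mutant arrays than on all 3 wild-type arrays for 5 of 7 controls examined. The mutant to wild-type ratio of intensity was 1.37 for 18S ribosomal RNA, 1.06 for the 5′ Gapdh probe set, 1.08 for the 3′ beta-actin probe set, 1.08 for the bioC spike and 1.10 for the cre spike. The exact two-sided permutation p was 0.1 for each, the smallest possible with 3 arrays against 3. Their part in the members' values was not tested.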

How the results depend on the processing

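The count of axon guidance probe sets past the threshold was 0 under all 17 alternatives (limma, smallest adjusted p = 0.0818, with the filter at the 60th percentile). Of 23 member probe sets followed, 20 kept their sign throughout. Many of the 23 were picked for a low p or for no overlap in these same arrays, and could hardly change sign. The count of 20 is therefore no measure of stability, and the probe sets that changed sign were all followed only as vascular pairs. The exceptions came with single arrays left out: Plxnd1 ran from -0.017 (mutant array 2 out) to 0.25, Unc5b from -0.15 to 0.047 (wild-type array 1 out) and Slit2 from -0.049 (wild-type array 2 out) to 0.24. The median of the members was -0.083 after median centring and lay between -0.050 and -0.0012 with single arrays left out. Members higher at an unadjusted p under 0.05 numbered 3 after median centring and 4 to 8 with single arrays left out, and members lower 3 to 9, with 4 higher and 3 lower without wild-type array 1 and 3 lower without wild-type array 2. The whole table moved as well. Of the 27022 tested probe sets, 1374 read higher at that level after median centring. With single arrays left out 1569 to 2096 read higher and 906 to 1837 lower.

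Over all tested probe sets the main count of 105 became 181 with offset 1, 64 with offset 64, 52 without the filter, 168 with the filter at the 60th percentile, 56 after median centring and 13 with 1 probe set per gene. It was 0 without the variance trend (with 2212 higher and 1291 lower by unadjusted p under 0.05) and 0 with both muscle and pituitary arrays left out (1651 and 1097). With single arrays left out it ran from 0 to 34, namely 28 when mutant array 1 was dropped, 34 when wild-type array 3 was, and 0 for each of the other 4. The causes were not tested.

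With the replicate block the count over all probe sets was 220, and 0 members passed. Deviations of same-numbered samples correlated at 0.18, 0.13 and 0.089. Every sample correlated best with its own number, and differently numbered samples correlated at -0.18 to 0.048. The numbers were not taken to pair the samples because not every same-numbered pair exceeded 0.1, a cut that does not test pairing. Whether same-numbered samples shared a batch was not tested. The log2 difference of the brighter Foxf2 probe set, -0.64, was -1.49 with offset 1 and -0.24 with offset 64. The alternative without both muscle and pituitary arrays, and the recounts at an unadjusted p and the medians per system under the alternatives, were added after seeing the data. With 3 arrays per group, dim probe sets were the least resolved.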
